A study of Arabidopsis thaliana with 4 samples.

Results

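Cytochrome P450 genes were followed in root tips of Arabidopsis thaliana that overexpress SCL28, which encodes a GRAS family transcription factor. A gene line was taken as a member when its description in the deposited comparison table contained the words cytochrome P450, in any case. This gave 221 of the 26822 lines used, after 1 further line, AT4G31940 (CYP82C4), was left out by the same rule. They comprised 219 P450 lines and 2 lines for the NADPH-dependent reductases ATR1 and ATR2, whose descriptions hold the same words. Among the P450 lines 5 were described as pseudogenes. The rule reads descriptions and no measured value, but it was chosen with earlier results of these data known.

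Cytochrome P450s are heme-bound monooxygenases that insert an oxygen atom into small molecules, using electrons that a reductase takes from NADPH. In plants they form one of the largest enzyme families and act in the synthesis and removal of hormones, in the making of lignin, suberin and cutin, and in specialised metabolism such as glucosinolates and triterpenes. Family and subfamily are written into the name, so CYP705A5 and CYP705A12 belong to one subfamily of family 705. The root tip holds the meristem, the root cap and the young elongating cells, and older tissue follows above it.

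All plants were seedlings of the ecotype Col-0, 5 days old, kept at 22 °C in constant light, and no other treatment is given. The WT group was wild type, and the SCL28-OX group was a single overexpressing line, number 10; the promoter and construct that drive SCL28 in it are not given in the sources used here. Each genotype had 2 RNA-seq libraries. The tissue label names the root tip, whereas the extraction protocol mentions roots. Whether both libraries of a genotype derive from separate cultures is not stated, so each p-value reflects only library-to-library spread, which may be technical.

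Levels are FPKM, fragments scaled to transcript length and library size, as the authors deposited them. SCL28 itself stood at 6.78 and 7.57 FPKM in WT and at 2378 and 2300 FPKM in SCL28-OX. The steps between low values implied about 32900000 and 27400000 fragments in the WT libraries and 28100000 and 26000000 in the SCL28-OX libraries, if each was scaled by its own mapped fragments. At that depth 1 FPKM stood for 44.7 to 56.7 fragments of a transcript of 1885 bases, the median length of the members tested. The libraries of a genotype differed within counting noise when a gene had 20 to 500 fragments in both together (chi-square test, p = 0.696 in WT and 0.384 in SCL28-OX), and beyond it for genes above 500 (p = 4.44e-05 and 0.000109).

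Most P450 proteins carry a short stretch around the cysteine that binds the heme iron, and the coding sequences of the members show it. A stretch of 30 bases that reads phenylalanine, glycine, arginine, cysteine and glycine at the usual spacing was found in 179 of the 221 lines, as 173 distinct sequences. The cysteine codon was TGT in 135 and TGC in 44. P450 lines without it, such as CYP710A1, CYP83B1 and CYP81K2, lack these exact residues in the RefSeq coding sequence, and variants of the stretch were not sought. Some have short coding sequences, such as CYP96A14P with 167 codons. The reductases, which are not P450s, gave no match either. The stretches of members that carry the results below are printed 5′ to 3′ from RefSeq on TAIR10.1, with the cysteine codon in capitals, to show how far the enzymes of one pathway differ around the shared residue.
CYP705A5: ttcggtagcggaaggagagctTGTcctgga
CYP708A2: tttggaggtggagtgagacagTGTgtcggc
CYP71A16: tttggagcagggagaaggttaTGTcccggc
CYP86A1: ttcaacgccggaccaaggactTGCttggga
CYP86A2: tttaacgccggacctaggatcTGTctagga
CYP86B1: tttaacggtggtccacgccttTGTcttggc
CYP83A1: ttcgggtcaggccggagaatgTGCccggga
CYP81F4: tttggaagcggacggagaataTGTcccggt
CYP98A3: tttggagctggaagacgggttTGTcccggt
CYP711A1: ttcggtatcggtccacgagccTGTgttgga
The stretch starts at codon 447 of 511 in CYP705A5, at codon 449 of 513 in CYP86A1 and at codon 431 of 508 in CYP98A3.

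Many members were barely detected in the root tip. Of the 221 lines, 45 were listed at 0 in all 4 libraries, 63 stood above 0 with a mean below 1 FPKM, and 113 had a mean of at least 1 FPKM and were tested. Of the 113, 33 had a mean of 1 to 5 FPKM, 20 of 5 to 10, 47 of 10 to 50 and 13 of 50 or more. CYP96A1 at 1.03 and CYP94C1 at 1.05 FPKM lay just inside the limit, and AT3G32047 at 0.927 and CYP702A6 at 0.874 FPKM just outside. Only 7 of the 113 reached 1 FPKM in the mean of a single genotype. Of those, CYP71A20 and CYP706A5 did so in SCL28-OX and the other 5 in WT.

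The most abundant member was CYP81F4, which modifies indole glucosinolates, with a mean of 242 FPKM over the 4 libraries. It was followed by CYP81D11 at 139, CYP83B1 of indole glucosinolate synthesis at 133, CYP705A5 of the thalianol pathway at 129 and CYP98A3 of lignin synthesis at 128 FPKM. The 10 most abundant members held 45.1% of the FPKM of all members. Family CYP76 was nearly silent, as none of its 8 lines reached 1 FPKM. In family CYP71, the largest with 49 lines, 15 did, and the family summed to 294 and 299 FPKM in WT and 316 and 316 in SCL28-OX. A pair of lines named as pseudogenes had levels above the limit, CYP77A5P with a mean of 11.6 FPKM and CYP96A14P with 5.89 FPKM. All members together made up 0.247% and 0.25% of the summed FPKM in the WT libraries and 0.32% and 0.317% in the SCL28-OX libraries. Both parts of this share changed. The members summed to 2346 and 2363 FPKM in WT and to 2718 and 2696 in SCL28-OX. The sum over all lines was lower in SCL28-OX, at 848731 and 849311 against 951429 and 945618 in WT.

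Compared with WT, more members were higher in SCL28-OX than lower. Each line was tested on log2(FPKM + 1) with limma across all 18087 lines of at least 1 FPKM, with Benjamini-Hochberg adjustment and a threshold of 0.05. Of the 113 tested members 45 rose, 18 fell and 50 did not pass, so that 39.8% were higher and 15.9% were lower. Without the 2 reductases, 43 of 111 rose and 18 fell. Over all tested lines 32.7% were higher and 33.8% were lower. The median log2 difference, always SCL28-OX minus WT, was 0.10 over the members and -0.0079 over all lines, and the median size without sign was 0.18 against 0.25. In these bulk samples fewer cells of a type and less RNA per cell cannot be told apart.

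Changes were mostly small. At 1.5-fold or more, 6 members were called higher, 5.31% of those tested against 5.95% of all lines, and 3 were called lower, 2.65% against 3.82%. CYP710A1 was the only member beyond 2-fold on the log2(FPKM + 1) scale. At 88 of the 113 members, or 77.9%, WT and SCL28-OX values were fully separate, against 83.6% of all tested lines. Between libraries of a genotype the members differed by a median log2 ratio, without sign, of 0.067 in WT and 0.06 in SCL28-OX. Of the 113 tested members, the authors' deposited table gives a q-value under 0.05 to 41 higher and 16 lower in SCL28-OX. Among these are 55 of the 63 members called here. That table also gives a q-value under 0.05 to CYP702A6, CYP71A19, CYP710A4 and CYP71A12, which lay below 1 FPKM and were not tested here.

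**Figure D1:**
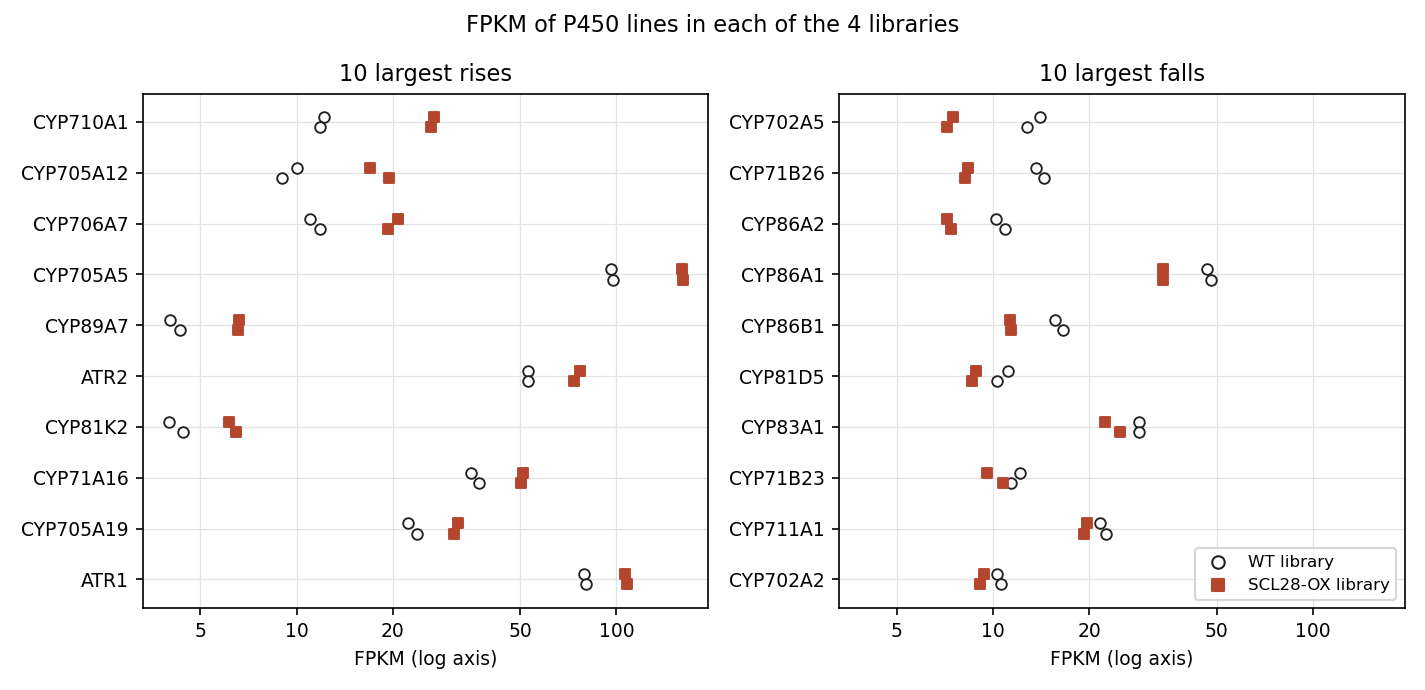
FPKM on a log axis (x) of the 10 members with the largest rises (left) and the 10 with the largest falls (right). The rises include the reductases ATR2 and ATR1. All were taken among called members with no overlap between the genotypes and a higher group mean of at least 5 FPKM. Each WT library has 1 open circle and each SCL28-OX library 1 filled square. The gap between the genotypes runs from wide, as in CYP705A5 at 96.2 and 97.3 FPKM in WT against 160 and 161 in SCL28-OX, to narrow, as in CYP71B23 at 12.1 and 11.4 against 9.55 and 10.7.

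Transcript length has to be read beside these counts. Over all tested lines with an annotated length, longer transcripts had higher differences, with a Spearman's rho of 0.67 across 17962 genes, which are not independent replicates. Across the 113 members rho was 0.08. Most transcripts of members are alike in length: their median was 1885 bases and their quartiles were 1790 and 2048 bases, against 1237 and 2309 for all lines. Between the members' quartiles of length, 31.2% of 2179 lines of any kind were higher, 19.4% were lower, and the median log2 difference was 0.027.

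When each library was corrected for the trend on length, 40 members (35.4%) were higher and 20 (17.7%) lower, against 23.5% and 22.7% of all lines. The members called in both fits were 36 higher and 16 lower. The median log2 difference of the members was 0.06 with the length correction, and over all lines it was -0.0073. With GC content corrected as well, 30 members (26.5%) were higher and 23 (20.4%) lower, against 21.5% and 20.2% of all lines, so that the members' share of falls was near that of all lines. CYP705A15, whose line has a transcript of 3815 bases, turned from 0.31 to -0.15 and was called in opposite directions. Values with the correction for length alone are called length-corrected from here on and are given where they change a call or a direction.

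**Figure D2:**
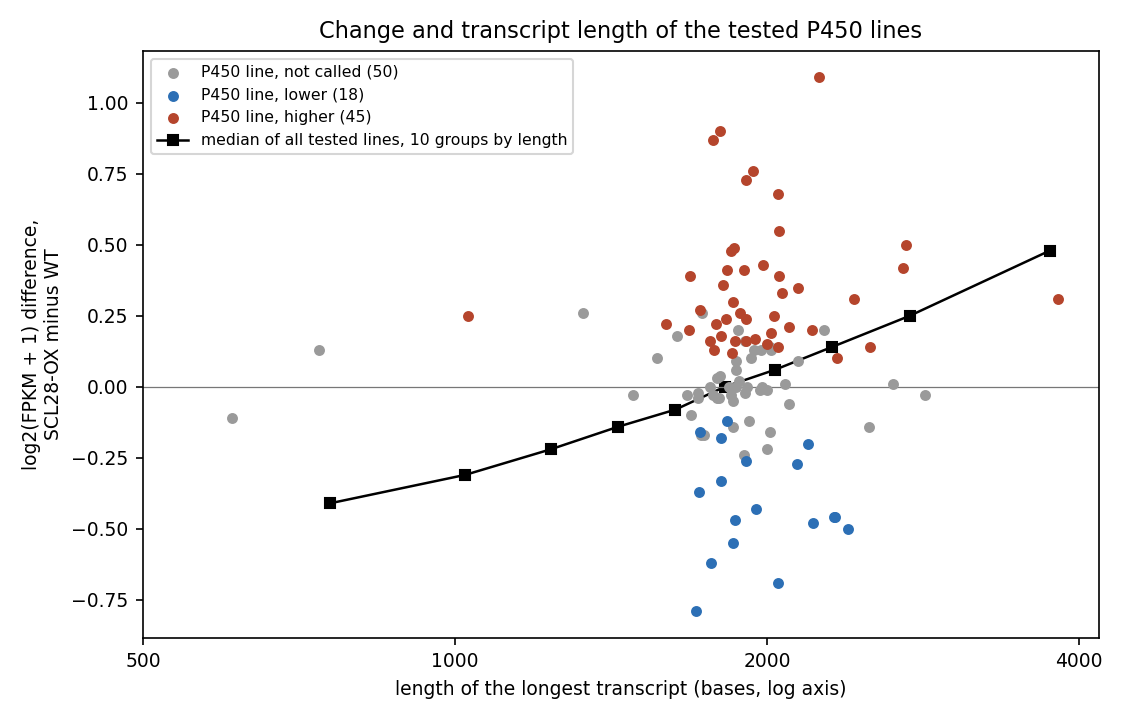
Difference in log2(FPKM + 1), SCL28-OX minus WT (y), against the length of the longest transcript in bases on a log axis (x). Points are the 113 tested members, the 2 reductases included, coloured by call. The black line joins the medians of all tested lines in 10 equal groups by length, from -0.41 in the shortest to 0.48 in the longest; most P450 lines lie near 1885 bases, where it is close to 0, and spread to both sides of it.

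Genes of sterol desaturation had the largest rise. Plant sterols are membrane lipids, and CYP710A enzymes introduce the double bond that turns sitosterol into stigmasterol. CYP710A1 (AT2G34500, TAIR10 chromosome 2, 14539479 to 14541406, minus strand) stood at 12.2 and 11.8 FPKM in WT and at 26.8 and 26.4 FPKM in SCL28-OX. Both SCL28-OX libraries lay above both WT libraries, with a ratio of means of 2.22 and a log2 difference of 1.09 ± 0.04 (SE; limma adjusted p = 1.26e-06). Its neighbour CYP710A2, which also makes brassicasterol, was at 2.27 and 2.61 FPKM in WT and at 4.27 and 4.71 FPKM in SCL28-OX. The groups were again apart, by 0.68 ± 0.09 (limma adjusted p = 0.000381). The remaining paralogs CYP710A3 and CYP710A4 had means of 0.244 and 0.572 FPKM and were not tested.

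CYP51G1, the sterol 14-demethylase that acts early in the pathway, is described in other words and is not a member, but it is on the same list. It stood at 115 and 117 FPKM in WT and at 135 and 138 FPKM in SCL28-OX, a rise of 0.24. Other enzymes of sterol and brassinosteroid synthesis moved in both directions: of 6 tested, DET2 and DWF1 rose by 0.20 and 0.15 while FK, the sterol C-14 reductase, and SMT1, a sterol methyltransferase, changed by -0.26 and -0.10; SMT1 differed by 0.06 after quantile normalization and was not called, and its call was lost without WT replicate 2 or SCL28-OX replicate 2. The call of DET2 was lost without SCL28-OX replicate 1. Length-corrected, CYP710A1 and CYP710A2 differed by 0.96 and 0.60, and with GC content corrected too by 0.77 and 0.45, all still called, while DWF1 differed by -0.05 and was not called.

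The 250 bases before the RefSeq gene start of both CYP710A genes are shown because these neighbours rose together, at chr2:14541618-14541867 and chr2:14537557-14537806 on TAIR10.1, read 5′ to 3′ from the minus strand. Capitals mark TATAAA on the sense strand, the core of a TATA box; AACGG, the core of the element that MYB3R factors bind in mitotic genes, and CACGTG, the G-box, were sought on both strands and are not in either window.
CYP710A1: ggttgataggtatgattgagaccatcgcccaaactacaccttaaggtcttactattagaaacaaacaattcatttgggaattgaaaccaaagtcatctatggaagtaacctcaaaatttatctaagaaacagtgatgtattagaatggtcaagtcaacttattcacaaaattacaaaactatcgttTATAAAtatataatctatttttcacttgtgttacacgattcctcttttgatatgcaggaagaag
CYP710A2: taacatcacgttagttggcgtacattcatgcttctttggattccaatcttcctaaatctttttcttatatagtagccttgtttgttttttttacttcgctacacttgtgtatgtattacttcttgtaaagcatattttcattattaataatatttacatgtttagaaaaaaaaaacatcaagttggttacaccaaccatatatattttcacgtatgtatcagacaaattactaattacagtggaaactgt
In CYP710A1 the TATAAA starts at position -64, counting the base before the RefSeq gene start as position -1. On the minus strand the deposited lines start at 14541406 for CYP710A1 and 14537432 for CYP710A2. The windows lie upstream of these and do not adjoin them. In promoter windows of the same length, TATAAA was present in 31.8% of all tested lines, in 15 of the 45 members that rose and in 11 of the 18 that fell. AACGG was in 22% of all tested lines, in 11 of the 45 and in 2 of the 18, and CACGTG in 7.2%, in 2 and in 2.

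All 5 tested triterpene P450s rose, where 32.7% of all tested lines were higher. Arabidopsis roots make thalianol and marneral, triterpenes whose genes lie side by side in the genome, each cluster holding an oxidosqualene cyclase and P450s that oxidise its product. CYP705A5 (AT5G47990, TAIR10 chromosome 5, 19434827 to 19436689, plus strand), the thalian-diol desaturase, stood at 96.2 and 97.3 FPKM in WT and at 160 and 161 FPKM in SCL28-OX. Libraries of a genotype were nearly equal, and the difference was 0.73 ± 0.02 (SE; limma adjusted p = 7.25e-07). CYP708A2, the thalianol hydroxylase of the same cluster, was at 72.4 and 75.5 FPKM in WT and at 84.8 and 84.1 FPKM in SCL28-OX. It rose by 0.19 ± 0.03 (limma adjusted p = 0.000878), less than its neighbour by the fitted values; the difference between the genes was not tested.

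In the marneral cluster CYP71A16, the marneral oxidase, stood at 35 and 37.1 FPKM in WT and at 50.9 and 50.2 FPKM in SCL28-OX, a difference of 0.48 ± 0.04. CYP705A12, the other P450 there, was at 9.99 and 9 FPKM in WT and at 17 and 19.5 FPKM in SCL28-OX. Its difference of 0.87 ± 0.08 (limma adjusted p = 3.85e-05) was exceeded only by CYP710A1 among members with a group mean of at least 5 FPKM. CYP705A1, which cleaves the triterpene arabidiol, was at 11.3 and 11.7 FPKM in WT and at 13.5 and 14 FPKM in SCL28-OX, a rise of 0.24. CYP716A1, an amyrin oxidase, had a mean of 0.675 FPKM and was not tested.

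The other genes of both clusters rose as well, 4 of 4 tested, against 32.7% of all tested lines. The cyclase THAS1, which makes thalianol, stood at 48.3 and 51.3 FPKM in WT and at 70.5 and 72.5 FPKM in SCL28-OX, a difference of 0.51. MRN1, the marneral synthase, stood at 2.18 and 2.75 FPKM in WT and at 6.24 and 6.2 FPKM in SCL28-OX, a difference of 1.07. All of these calls held in the length-corrected fit, with differences of 0.29 for THAS1 and 0.83 for MRN1. The triterpene list was written with its rise known, so its count is a description. Summed over 5 root hair cell markers FPKM was 372 and 373 in WT against 460 and 453 in SCL28-OX, with 4 of 5 higher and EXPA18 lower, though not length-corrected; its part in the rise was not tested.

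Of 6 tested P450s on the list of fatty acid hydroxylation 4 fell, against 33.8% of all tested lines. The list does not hold all of family CYP86: CYP86C2, a tested member outside it, did not pass. Suberin, deposited around the mature endodermis, and cutin, on the shoot surface and the young root cap, are polyesters built from omega-hydroxy fatty acids, which CYP86 enzymes make. CYP86A1 (AT5G58860, TAIR10 chromosome 5, 23765814 to 23768049, minus strand), the main root suberin hydroxylase, stood at 46.7 and 47.9 FPKM in WT and at 34.1 and 33.9 FPKM in SCL28-OX. Both SCL28-OX libraries were lower, with a difference of -0.47 ± 0.03 (SE; limma adjusted p = 1.35e-05). CYP86B1, which hydroxylates very long chains for suberin, was at 15.6 and 16.5 FPKM in WT and at 11.3 and 11.4 FPKM in SCL28-OX, a difference of -0.46 ± 0.05 (limma adjusted p = 0.000125).

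The cutin hydroxylase CYP86A2 stood at 10.2 and 10.9 FPKM in WT and at 7.15 and 7.39 FPKM in SCL28-OX, a difference of -0.48. CYP86A4, a cutin enzyme of flowers, was low, at 1.81 and 1.87 against 1.14 and 0.999 FPKM, a difference of -0.46. CYP86A8 (LACERATA) with 5.77 and 5.79 FPKM in WT and 5.9 and 5.79 FPKM in SCL28-OX did not pass, nor did the epoxygenase CYP77A4. Length-corrected, CYP86A8, with a transcript of 2645 bases, differed by -0.21 and was called lower. With a correction for length and GC content together CYP86A2, CYP86A1 and CYP86A4 differed by -0.88, -0.69 and -0.73.

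Of 7 other suberin genes tested, 5 fell and 2 rose, against 33.8% and 32.7% of all tested lines. FAR5 and FAR4, fatty acyl reductases that make the primary alcohols of suberin, had the largest falls of the list. FAR5 stood at 18.2 and 17.1 FPKM in WT and at 11 and 11.7 FPKM in SCL28-OX, a difference of -0.59, and FAR4 differed by -0.53. KCS20 and KCS2, elongases of very long chains, rose: KCS20 from 25.9 and 25.2 FPKM to 44 and 42.4 FPKM, a difference of 0.73, and KCS2 by 0.19, a call that was lost in the length-corrected fit and without WT replicate 1 or either SCL28-OX library. Of 6 markers of the differentiated endodermis CASP1 and ESB1 rose and CASP5 fell, and their summed FPKM was 701 and 700 in WT and 736 and 724 in SCL28-OX. Length-corrected, 5 of the 6 were higher, against 23.5% of all lines, and CASP5 was not called. Of 8 meristem and root cap markers 3 fell and 1 rose. The part of either cell type in the fall of the CYP86 genes was not tested.

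The upstream windows of CYP86A1 and CYP86B1 are shown because both genes fell, at chr5:23768112-23768361 and chr5:7805969-7806218 on TAIR10.1, minus strand, read 5′ to 3′, with TATAAA and AACGG in capitals.
CYP86A1: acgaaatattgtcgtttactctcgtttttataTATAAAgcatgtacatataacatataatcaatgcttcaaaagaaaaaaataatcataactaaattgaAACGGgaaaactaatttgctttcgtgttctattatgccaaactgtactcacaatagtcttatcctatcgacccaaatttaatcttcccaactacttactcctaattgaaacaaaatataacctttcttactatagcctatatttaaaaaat
CYP86B1: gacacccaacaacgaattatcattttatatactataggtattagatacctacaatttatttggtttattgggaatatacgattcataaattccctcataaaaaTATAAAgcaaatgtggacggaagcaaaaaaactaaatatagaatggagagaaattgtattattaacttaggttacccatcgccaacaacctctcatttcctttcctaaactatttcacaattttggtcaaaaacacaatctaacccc
TATAAA starts at position -218 in CYP86A1 and at -147 in CYP86B1, and AACGG starts at -151 in CYP86A1 on the sense strand. These matches do not overlap. Positions count from the RefSeq gene start, and the deposited interval given above for CYP86A1 does not adjoin its window.

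**Figure D3:**
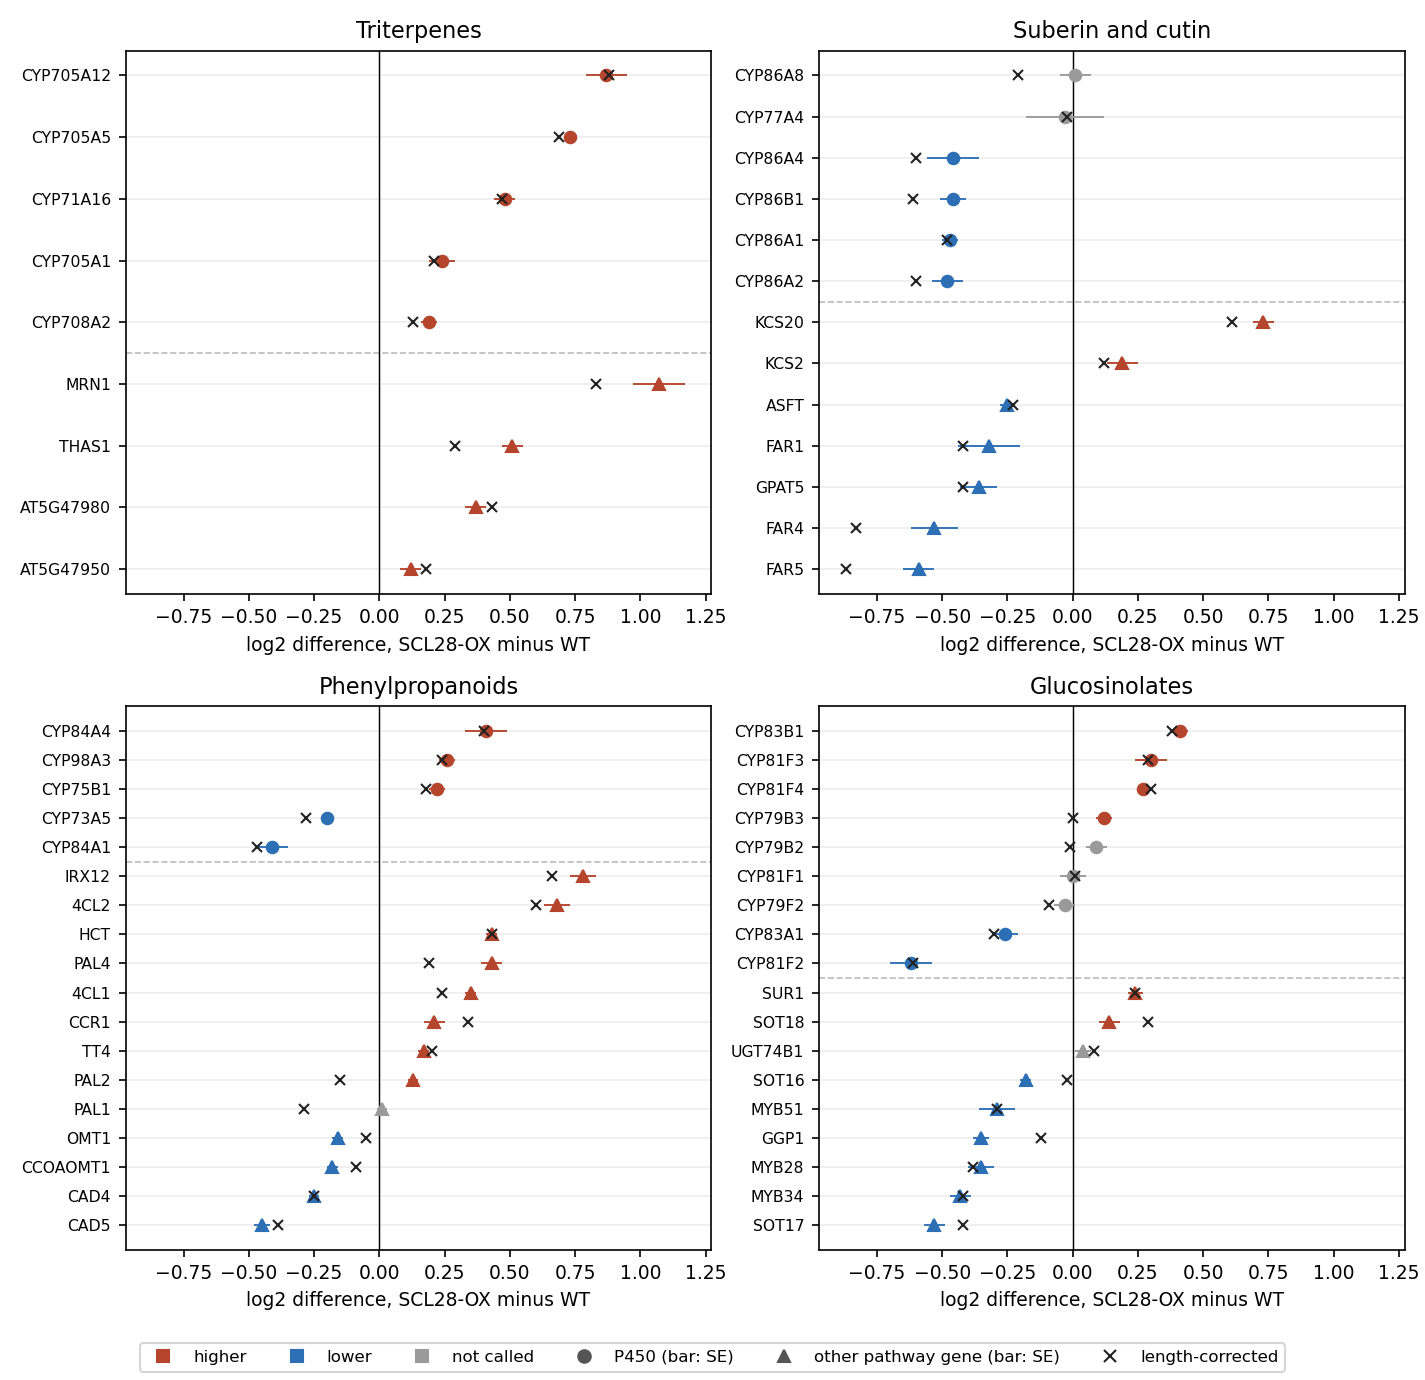
Fitted log2(FPKM + 1) difference, SCL28-OX minus WT (x; bars are SE, 2 libraries per genotype), of tested P450s (circles, above the dashed line) and of other genes of the pathway (triangles, below it) for 4 pathways, coloured by call, with the length-corrected value as a cross. All 5 triterpene P450s and 4 other cluster genes lie right of 0, 4 fatty acid hydroxylases and 5 suberin genes lie left of it, and the phenylpropanoid and glucosinolate genes lie on both sides.

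Glucosinolate P450s moved in opposite directions within 1 pathway. Glucosinolates are defence compounds; CYP79 enzymes turn amino acids into aldoximes, CYP83 enzymes carry these on, and CYP81F enzymes decorate the indole ring. CYP83B1 of the indole branch stood at 114 and 115 FPKM in WT and at 155 and 150 FPKM in SCL28-OX, a difference of 0.41 ± 0.03 (SE; limma adjusted p = 9.13e-06). CYP83A1 of the aliphatic branch was at 28.6 and 28.6 FPKM in WT and at 22.4 and 25 FPKM in SCL28-OX, a difference of -0.26 ± 0.05 (limma adjusted p = 0.00351).

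Among the CYP81F genes CYP81F4, which leads to the 1-methoxy indole glucosinolate, stood at 217 and 221 FPKM in WT and at 269 and 260 FPKM in SCL28-OX, a rise of 0.27. Its neighbour CYP81F3 rose by 0.30, from 17.7 and 18.6 FPKM to 23.8 and 21.5 FPKM. CYP81F2, which hydroxylates another position of the indole ring, was low and fell, from 3.64 and 3.62 FPKM to 1.95 and 2.07 FPKM, a difference of -0.62. CYP81F1 was at 13.6 and 14.2 against 14.1 and 13.6 FPKM and did not pass. Of the CYP79 genes, described in other words, CYP79B3 rose by 0.12 and CYP79B2 and CYP79F2 did not pass; the call of CYP79B3 was lost in the length-corrected fit.

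Of 9 other glucosinolate genes tested 6 fell and 2 rose, and length-corrected 5 fell and 3 rose. Over all tested lines 33.8% fell and 32.7% rose, and length-corrected 22.7% and 23.5%. The transcription factor genes MYB34 of the indole branch and MYB28 of the aliphatic branch fell, MYB34 from 85.4 and 91 FPKM to 64.5 and 66.2 FPKM, a difference of -0.43, and MYB28 by -0.35. The sulfotransferase gene SOT17 fell most, by 0.53, and the lyase gene SUR1 rose by 0.24. So CYP83B1, CYP81F3 and CYP81F4 were higher while MYB34 and MYB51, regulators of the indole branch, were lower, MYB51 no longer called without WT replicate 1. With the correction for length and GC content CYP83B1 and CYP81F4 differed by 0.27 and 0.15 and were still called, while CYP81F3 differed by 0.08 and was no longer called.

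Related indole enzymes were lower. CYP71B6, which acts on indole-3-acetonitrile, stood at 38.8 and 40.4 FPKM in WT and at 36.7 and 36 FPKM in SCL28-OX, a small difference of -0.12 (limma adjusted p = 0.0197). The call was lost without WT replicate 2 or SCL28-OX replicate 2, with differences of -0.09 and -0.11. CYP71B15 (PAD3), the last enzyme of camalexin synthesis, is described in other words and fell by 0.51, from 18.7 and 18.7 FPKM to 12.1 and 13.5 FPKM. CYP71A12 and CYP82C2 had means of 0.202 and 0.0294 FPKM, and CYP71A13 was listed at 0.

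Phenylpropanoid P450s, which lead to lignin and flavonoids, moved in both directions. CYP98A3, the coumaroyl ester 3-hydroxylase, stood at 118 and 114 FPKM in WT and at 139 and 139 FPKM in SCL28-OX, a rise of 0.26 ± 0.03 (SE; limma adjusted p = 7.51e-05). With the correction for length and GC content it differed by 0.02 and was not called. CYP84A4, which serves the synthesis of arabidopyrones, rose from 4.63 and 4.06 FPKM to 6 and 6.16 FPKM, a difference of 0.41 that became 0.12 and was not called with that correction. Its relative CYP84A1, the ferulate 5-hydroxylase, is described in other words and fell by 0.41, from 8.97 and 9.48 FPKM to 6.9 and 6.48 FPKM.

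CYP73A5, the cinnamate 4-hydroxylase at the pathway's entry, was the most abundant P450 of the lists at 544 and 529 FPKM in WT and 470 and 466 FPKM in SCL28-OX, a difference of -0.20, which after quantile normalization was 0.11 and called higher. CYP75B1, the flavonoid 3'-hydroxylase, rose by 0.22, and with the correction for length and GC content differed by 0.01 and was not called. Of 13 other genes of the pathway 8 rose and 4 fell, against 32.7% and 33.8% of all tested lines. The laccase gene IRX12 and the ligase gene 4CL2 had the largest rises, at 0.78 and 0.68. The dehydrogenase genes CAD5 and CAD4 had the largest falls, at -0.45 and -0.25. After quantile normalization CAD4 differed by 0.04 and was not called, and 2 more of the 4 that fell were called higher. Length-corrected 7 of the 13 were higher and 6 lower, against 23.5% and 22.7% of all lines, and PAL2 turned from 0.13 to -0.15. Of 6 xylem markers 4 rose, among them the cellulose synthase genes IRX3 by 0.82, IRX1 by 0.53 and CESA4 by 0.47. Their summed FPKM was 315 and 318 in WT and 337 and 339 in SCL28-OX, and its part in the phenylpropanoid changes was not tested. In the length-corrected fit IRX1 and CESA4 differed by 0.15 and 0.03 and were not called. The lines of IRX3, IRX1 and CESA4 share their interval with another line or join several loci, so reads of other genes may be mixed in them.

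Of 11 tested members that act on hormones 2 passed the test, and of 11 tested hormone genes described in other words 5 did; of all tested lines 32.7% were higher and 33.8% lower. For brassinosteroids, steroid hormones of growth, CYP90B1 (DWF4), the rate-limiting hydroxylase, stood at 33.7 and 33.2 FPKM in WT and at 32.6 and 33 FPKM in SCL28-OX. Its difference of -0.03 did not pass. Length-corrected it was -0.30 and called lower, for a transcript of 2844 bases. CYP90A1 (CPD) was at 23.3 and 22.9 against 24.7 and 24.9 FPKM and did not pass (limma adjusted p = 0.0578). Among brassinosteroid genes described in other words CYP90D1 rose by 0.48 and CYP90C1 by 0.24, CYP85A2 fell by 0.16 and CYP85A1 did not pass. The call of CYP90C1 was lost in the length-corrected fit.

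CYP734A1 (BAS1), which inactivates brassinosteroids, rose by 0.20, from 7.86 and 7.26 FPKM to 8.85 and 8.87 FPKM (limma adjusted p = 0.0217). That call was lost in the length-corrected fit, where the difference was 0.09 (limma adjusted p = 0.281), and without WT replicate 2 or either SCL28-OX library, where it was 0.15, 0.21 and 0.20. CYP72C1, a second inactivating enzyme, was at 19.9 and 20.6 against 20.4 and 20.1 FPKM and did not pass. CYP724A1 was listed at 0.

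For gibberellins the deactivating enzymes CYP714A1 and CYP714A2 did not pass, with differences of -0.01 and -0.04, nor did the synthesis enzymes CYP701A3, CYP88A3 and CYP88A4, which are described in other words. Of 5 other gibberellin genes tested GA3OX1, which makes the active hormone, rose from 12.2 and 12.5 FPKM to 20.5 and 20.4 FPKM, a difference of 0.69, and GA2 rose by 0.19, a call that was lost in the length-corrected fit and when any of the 4 libraries was left out. The jasmonate hydroxylases CYP94B1, CYP94B3 and CYP94C1 did not pass, with differences of 0.16, -0.12 and -0.22; without WT replicate 1 CYP94B1 passed at 0.23. For abscisic acid, all 4 CYP707A genes are described in other words, and CYP707A3 fell by 0.42 while CYP707A1 did not pass.

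The cytokinin hydroxylases, which make trans-zeatin forms, lay on opposite sides of 0. CYP735A1 stood at 2.98 and 3.29 FPKM in WT and at 2.65 and 2.35 FPKM in SCL28-OX, a difference of -0.24 that just missed the threshold (limma adjusted p = 0.0514) and passed it length-corrected (0.0478) or without SCL28-OX replicate 1 (0.0463). CYP735A2, described in other words, rose by 0.44, from 14.4 and 13.6 FPKM to 19.9 and 18.7 FPKM. CYP711A1 (MAX1) of strigolactone synthesis fell by 0.18, from 21.6 and 22.5 FPKM to 19.6 and 19.2 FPKM (limma adjusted p = 0.00778). Without WT replicate 2 its difference was -0.15 and not called (limma adjusted p = 0.056).

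Of the CYP78A genes of organ growth only CYP78A8 reached 1 FPKM, with a mean of 1.12 FPKM and a difference of -0.10 that did not pass. CYP97B3 of the carotenoid hydroxylase family did not pass, and CYP97A3, described in other words, rose by 0.18, a call that was lost in the length-corrected fit and when any of the 4 libraries was left out. Taking all role lists, 52 of 80 loci were members by the rule, 27 were described in other words, and 1 is not analysed here.

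**Figure D4:**
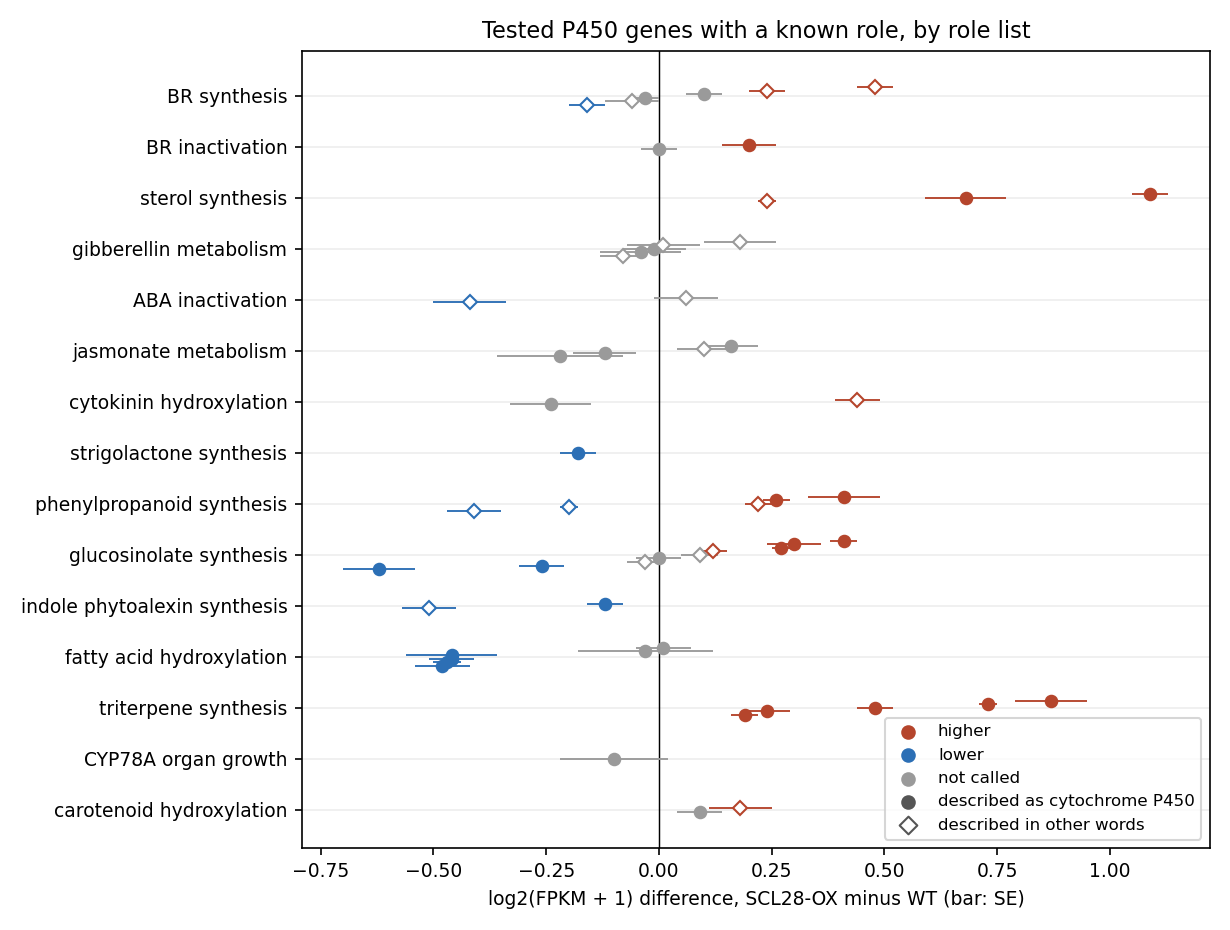
Fitted log2(FPKM + 1) difference, SCL28-OX minus WT (x; bars are SE, 2 libraries per genotype), of each tested P450 gene with a known role, in 1 row per role list (y) and coloured by call, with filled circles for lines described as cytochrome P450 and open diamonds for genes described in other words. Sterol and triterpene genes lie right of 0, 4 fatty acid hydroxylases lie left of it near -0.47, and the hormone lists lie on both sides of 0.

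Genes of electron transfer to P450s moved in opposite directions. ATR1 and ATR2, the reductases that feed electrons to P450s of the endoplasmic reticulum, both rose. ATR1 stood at 79.3 and 80.3 FPKM in WT and at 106 and 108 FPKM in SCL28-OX, a difference of 0.42 ± 0.03 (SE; limma adjusted p = 7.74e-06), and ATR2 at 52.9 and 53 against 77.1 and 73.5 FPKM, a difference of 0.50 ± 0.03. Their transcripts have 2704 and 2724 bases, and length-corrected the differences were 0.18 and 0.25, both still called. The cytochrome b5 genes, an alternative electron donor for some P450s, fell, 4 of 4 tested, but length-corrected 2 were lower and 1 higher. Over all tested lines 33.8% were lower, and 22.7% length-corrected. CB5-E, with a transcript of 777 bases, went from 1139 and 1144 FPKM to 760 and 770 FPKM, a difference of -0.58 that was -0.18 length-corrected. CB5-B differed by -0.37, and by -0.39 length-corrected. CB5-D, with a short transcript of 797 bases, changed from -0.23 to 0.16 length-corrected and was called in both directions, and CB5-C was no longer called.

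Other members with large changes have roles that are less settled. CYP702A5 (AT4G15393) fell most among the tested members, from 14 and 12.8 FPKM to 7.51 and 7.16 FPKM, a difference of -0.79 ± 0.06 (SE; limma adjusted p = 2.51e-05). CYP71B26 (AT3G26290) followed, from 13.6 and 14.4 FPKM to 8.36 and 8.17 FPKM, a difference of -0.69 ± 0.06. CYP706A7 (AT4G12330) rose from 11 and 11.8 FPKM to 20.8 and 19.3 FPKM, a difference of 0.76 ± 0.06 (limma adjusted p = 1.79e-05). CYP71A20, named after its values were seen, rose from 0.373 and 0.542 FPKM to 1.63 and 1.81 FPKM, a difference of 0.90, and passed the filter through SCL28-OX alone.

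Smaller rises came with CYP89A7, from 4.03 and 4.33 FPKM to 6.59 and 6.55 FPKM, a difference of 0.55. CYP81K2 rose by 0.49 and CYP705A19 by 0.43, the latter from 22.3 and 23.8 FPKM to 31.9 and 31 FPKM. CYP81D11, known to respond to foreign chemicals, rose by 0.22 at a level of 129 and 129 FPKM in WT and 150 and 150 FPKM in SCL28-OX. CYP71B2 rose by 0.16, and CYP87A2, with 65.5 and 63.5 FPKM in WT and 65.6 and 62.7 FPKM in SCL28-OX, did not pass. Smaller falls were those of CYP81D5 at -0.27, CYP71B23 at -0.20 and CYP702A2 at -0.16. The call of CYP702A2 was lost when any of the 4 libraries was left out, at -0.14 to -0.18, and that of CYP71B23 without WT replicate 1 or SCL28-OX replicate 1, at -0.16 and -0.12.

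Near-identical copies limit a few values. The 50-base words of CYP706A2, CYP706A1 and CYP89A5 were unique in the genome for 39.6%, 53.4% and 68.9% of positions, while 88 of the 113 tested members had at least 99% unique words. CYP706A1 and CYP706A2 were listed at 1.73 and 1.94 and at 1.67 and 2.02 FPKM in WT, with differences of -0.50 and -0.55 that both passed. CYP706A2 reached 1 FPKM only in the WT mean, and the call of CYP706A1 was lost without WT replicate 2, at -0.45. How the authors' counting divided reads between these copies was not given in the sources used here, so their separate values are uncertain. Another 9 tested members share their interval with another line or join several loci, namely CYP705A25, CYP71B6, CYP711A1, CYP704A2, CYP98A3, CYP81D11, CYP86A2, CYP81F4 and ATR1, and reads of overlapping genes may be mixed in them. Among tested genes of the other lists this also holds for CYP90C1, CYP97A3, DET2, KCS2, CCR1, TT4, CB5-D, CASP1, ESB1, IRX3, IRX1 and CESA4.

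Counts by family stand beside shares of 32.7% higher and 33.8% lower over all tested lines. Length-corrected, these shares were 23.5% and 22.7%. Of the 21 lines of family CYP705, 18 were tested, 10 rose and 8 did not pass; length-corrected 9 rose and CYP705A15 fell. Of the 10 lines that are named or described as CYP86, 6 were tested and 4 fell. Family CYP81 had 6 rises and 2 falls in 13 tested, and family CYP71 had 4 rises and 3 falls in 15. These are counts only, and no family was tested against another.

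P450 lines often lie next to each other. There were 40 runs of at least 2 member lines with no other line between them, with 116 lines in all and 9 in the longest. In 18 runs 2 or more lines were tested. Over all tested lines 32.7% were higher and 33.8% lower, and length-corrected 23.5% and 22.7%. Without a correction every tested line rose in 6 of the 18 runs, and in 3 no line passed. The 6 include the CYP710A, CYP81F, thalianol and marneral pairs described above. Whether neighbours change alike was not tested. In the uncorrected fit 1 run held both a rise and a fall. There CYP81D3 rose by 0.16 and CYP81D5 fell by 0.27, with CYP81D4 between them at 17.1 and 17.4 against 17 and 16.9 FPKM. The call of CYP81D3 was lost when any of the 4 libraries was left out, at 0.14 to 0.18. Length-corrected, 2 runs held both directions, the other being the run of CYP705A15, CYP705A18 and CYP705A19 with 1 line higher and CYP705A15 lower. The CYP706A run, where CYP706A4, CYP706A5 and CYP706A7 rose, is among the 6 in which every tested line rose. CYP706A5 passed the filter through SCL28-OX alone. Length-corrected, 1 of these 3 genes was higher.

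Neighbours could be at very different levels. In the run of 6 CYP72A genes CYP72A13 had a mean of 63.1 FPKM, CYP72A7 of 26.2 and CYP72A11 of 9.72 FPKM, and all 3 rose, while the genes between them lay below 1 FPKM. CYP72A13, with a transcript of 2514 bases, changed from 0.14 to -0.06 length-corrected and was no longer called. In the run of 7 CYP71B genes CYP71B26 fell, while CYP71B34 and CYP71B37, at similar levels, did not pass with differences of 0.04 and -0.04. In the CYP89A run CYP89A7 and CYP89A5 rose and CYP89A6 between them did not pass at -0.17.

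**Figure D5:**
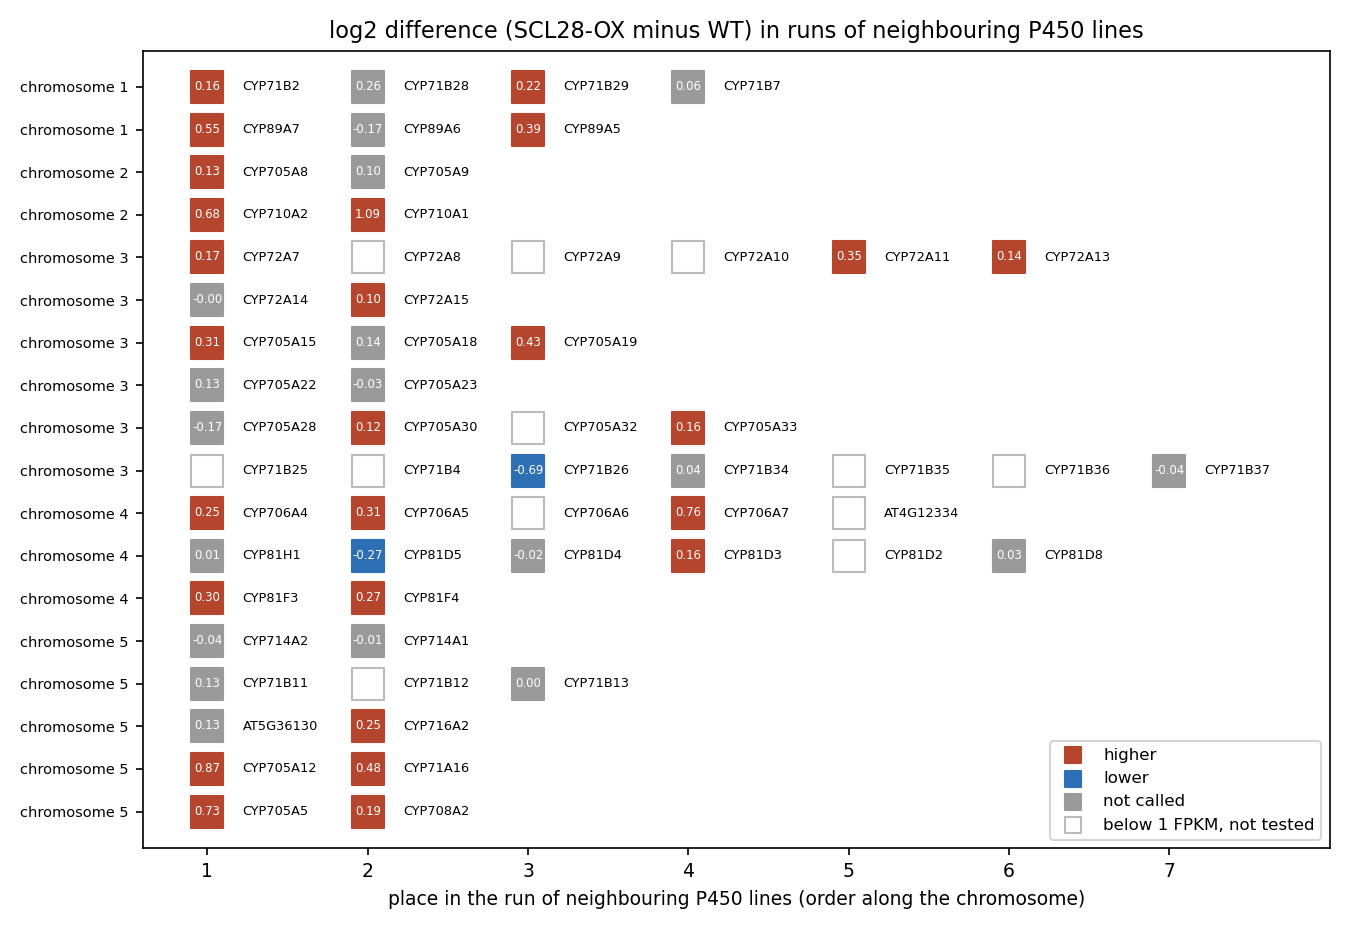
Runs of neighbouring P450 lines with at least 2 tested lines, 1 run per row with its chromosome (y), in order along the chromosome (x); each square is a line, coloured by call, with its log2(FPKM + 1) difference, SCL28-OX minus WT, written in it. The values carry no length correction. The 18 runs show 6 in which all tested lines rose, among them the CYP706A run, whose CYP706A5 passed the filter through SCL28-OX alone. Over all tested lines 32.7% were higher and 33.8% lower. In 1 run, with CYP81D5 and CYP81D3, lines were called in both directions.

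Markers of shoot photosynthesis were checked because root samples may hold traces of green tissue. Of 6 tested 4 rose, against 32.7% of all tested lines. RBCS1A went from 19.5 and 19 FPKM to 39.7 and 38.9 FPKM, and RBCS2B was listed at 0 in all 4 libraries. Length-corrected, all 6 were called higher, against 23.5% of all lines. Their summed FPKM was 138 and 138 in WT and 198 and 198 in SCL28-OX, and their part in the P450 changes was not tested.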

How the data were processed

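RNA from root tips was sequenced in 4 libraries, 2 per genotype. Libraries were made with a stranded mRNA kit, per the labels' protocols. CASAVA 1.8.2, TopHat2 2.0.13 and Cuffdiff 2.2.0 were used with the TAIR10 genome, per the submitters' processing notes; whether counting used the strand was not given in the sources used here. The authors deposited FPKM per gene line and library, per the file headers, and no read counts were used. FPKM scales by length and library size, so losses that depend on transcript length stay in it. The authors' deposited comparison table also gives group mean FPKM, a score, and a p-value and q-value; the deposited q-value was compared with the calls here, and the deposited score was not printed.

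Members and lists were chosen with earlier results of these data known. Of 26883 lines, 60 with shifted columns, none a member, were left out and 1 is not analysed here. Lines with a mean of at least 1 FPKM were fitted in limma 3.58.1 under R 4.3.3 on log2(FPKM + 1), using lmFit and eBayes with an intensity trend. Tests were two-sided, and p-values were adjusted over 18087 lines by Benjamini-Hochberg, with a threshold of 0.05. A pseudocount of 1 understates changes of low genes. Length and GC corrections subtract a lowess trend (span 0.3) per library, using RefSeq TAIR10.1, whose nuclear chromosomes equal TAIR10 in length. Fragments per FPKM came from steps of low values, of which 93.3% to 94.6% were whole within 0.1. The fit was tested on simulated data.

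Named were the 10 largest rises and 10 largest falls among called members without overlap and with a higher group mean of at least 5 FPKM, the 10 highest levels, all role lists, described runs, and up to 2 rises and 2 falls per partner list. Motifs, 50-base words and coding stretches were read from the same RefSeq genome. Alternatives were other pseudocounts, filters, scalings, corrections and variance settings, a replicate block, lines without overlap, and each library left out. A further marker gene is not reported here.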

Additional observations from a re-analysis of the deposited data

How the results depend on the processing

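Across 17 alternatives 36 of the 63 called members and 41 of the 74 called genes of the other lists kept their call in each alternative that tested them; of 1879 values of the 113 tested members, 1717 kept their side of the threshold, 45 gained a call, 107 lost one and 10, in 4 members, changed sign. The length correction, with or without the replicate block, gave -0.15 for CYP705A15, -0.06 for CYP72A13, -0.05 for CYP72A15, -0.05 for DWF1, -0.04 for GA2, -0.15 for PAL2, 0.05 for EXPA18 and 0.16 for CB5-D. With GC content too, the values were -0.28 for CYP705A15, -0.06 for CYP72A13, -0.10 for CYP72A15, -0.04 for CYP81D3, -0.09 for DWF1, -0.22 for PAL2, 0.09 for CB5-D, -0.07 for CYP79B3, -0.12 for ESB1, -0.02 for PAL4, -0.10 for TT4 and -0.01 for CESA4. Quantile normalization gave 0.11 for CYP73A5, 0.04 for CAD4, 0.10 for CCOAOMT1, 0.10 for OMT1 and 0.06 for SMT1. The cause of these changes of sign was not tested. A minimum mean of 5 FPKM gave 11 members lower in place of 18, as fewer lines were tested. In the other alternatives the counts stayed within 1.5 times 45 higher and 18 lower. The median log2 difference of members, 0.098, became 0.071 with a pseudocount of 5 FPKM, 0.019 without a filter, 0.135 with a minimum mean of 5 FPKM, 0.067 after quantile normalization, 0.062 after the length correction and 0.036 after the length and GC correction; apart from the filters, which change the lines tested, the cause was not tested. Leaving out 1 library gave 37 to 39 higher, 14 to 16 lower and a median of 0.084 to 0.102. With the replicate number as a block 43 were higher and 17 lower, and with the length correction too 38 and 19 (median 0.062). The labels do not say what a number shares, and differences between replicates 1 and 2 correlated between genotypes with r = 0.122 over 18087 lines, so the block is only an alternative. With 2 libraries per genotype an exact permutation test cannot give a p below 0.333, so calls rest on limma's shared estimate of the spread.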
